A study of Mus musculus with 8 samples.

Results

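The transcripts of the 14-3-3 adaptor family were examined in platelets from 4 TNFdARE mice and from 4 littermates that served as controls. Its members were the 6 genes Ywhab, Ywhae, Ywhag, Ywhah, Ywhaq and Ywhaz, taken by symbol, and all 6 were among the 43548 genes listed. TNFdARE mice (genotype TNFdAre +) carry a germline deletion of the AU-rich elements of Tnf, so that every cell type bears it, and they make TNF-α in excess. The controls (TNFdAre -) are labelled B6, lack the deletion and received no other treatment, and all 8 mice were sampled at baseline, with 2 females and 2 males per genotype. The mice were 8 to 12 weeks old according to the methods, although a field of the sample descriptions speaks of 5.2 month old males. All libraries carry the same batch date.

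14-3-3 proteins are small dimeric adaptors that bind phosphorylated serine and threonine motifs of many client proteins, and thereby hold clients in place, keep them inactive or shield them from dephosphorylation. The mammalian isoforms are named after Greek letters, as β (Ywhab), ε (Ywhae), γ (Ywhag), η (Ywhah), θ (Ywhaq, also called τ), ζ (Ywhaz) and σ (Sfn). In platelets, 14-3-3ζ binds the cytoplasmic tails of the von Willebrand factor receptor GPIb-IX-V. The γ protein served as a loading control in the immunoblots of the study, and Ywhaz is widely used as a reference gene for RNA. The comparison between genotypes asks whether the platelet transcripts of this family differ under chronic TNF-α.

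The sequences below are shown because the values of each member depend on how well its transcript can be told from those of its relatives. Each is a stretch of 60 coding bases, read from the GENCODE M21 transcripts (GRCm38), with the bases that differ from Ywhah in capitals. The first set is the stretch in which the 6 members were most alike, with 38 of 60 positions identical in all, and it starts between coding bases 34 and 40, counted from 1 at the start codon.
Ywhah: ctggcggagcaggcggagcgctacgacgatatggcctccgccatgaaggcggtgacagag
Ywhag: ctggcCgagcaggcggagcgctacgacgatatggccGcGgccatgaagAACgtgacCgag
Ywhaq: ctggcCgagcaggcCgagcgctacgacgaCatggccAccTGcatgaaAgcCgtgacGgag
Ywhab: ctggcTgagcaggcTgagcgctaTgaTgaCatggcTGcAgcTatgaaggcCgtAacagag
Ywhaz: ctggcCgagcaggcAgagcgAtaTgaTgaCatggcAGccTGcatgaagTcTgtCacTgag
Ywhae: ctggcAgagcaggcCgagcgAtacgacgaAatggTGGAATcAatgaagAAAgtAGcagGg

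The second set is the stretch in which they were least alike, with 11 of 60 positions identical in all.
Ywhah: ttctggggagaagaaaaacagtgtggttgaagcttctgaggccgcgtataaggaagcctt
Ywhag: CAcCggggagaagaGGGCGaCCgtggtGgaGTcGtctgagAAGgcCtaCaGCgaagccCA
Ywhaz: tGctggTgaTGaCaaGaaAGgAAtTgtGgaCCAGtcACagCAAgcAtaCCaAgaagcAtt
Ywhab: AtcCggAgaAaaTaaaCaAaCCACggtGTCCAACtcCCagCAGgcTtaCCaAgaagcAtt
Ywhaq: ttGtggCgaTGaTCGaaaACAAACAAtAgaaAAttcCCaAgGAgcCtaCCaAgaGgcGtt
Ywhae: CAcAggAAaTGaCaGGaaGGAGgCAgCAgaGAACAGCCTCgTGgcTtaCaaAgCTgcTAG

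Ywhag was the closest relative of Ywhah, with 78.95% identical coding bases and 7 differences in the most alike stretch, whereas Ywhae shared 61.5% with Ywhah. The longest run of identical coding bases between any pair of members was 30, between Ywhag and Ywhah. The libraries were read in 150 base reads, which are longer than that run. Several members have near-identical copies elsewhere in the genome, and these are described with the member they resemble.

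The genes lie on 5 chromosomes of GRCm38, the build called mm10 in the submitters' processing notes. Ywhah (ENSMUSG00000018965) is at chr5:33018816-33027966 on the forward strand, and Ywhag (ENSMUSG00000051391) is on the reverse strand of the same chromosome at chr5:135908409-135934616. Each of these has its coding sequence in 2 exons. Ywhaz (ENSMUSG00000022285) is at chr15:36770770-36796929, Ywhae (ENSMUSG00000020849) at chr11:75732869-75765845, Ywhab (ENSMUSG00000018326) at chr2:163994960-164018588 and Ywhaq (ENSMUSG00000076432) at chr12:21390071-21417637. Ywhae overlaps the lincRNA Gm26836 and Ywhaq the antisense gene Gm4419, both on the opposite strand. Whether strand was used in the authors' estimates is not given in the sources used here.

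Values were read as FPKM, an inference from the tool named and from the sums of the libraries, that is fragments scaled to the length of the transcript and to the mapped fragments of the library, so members can be compared with each other within a library. The number of genes above 0 ranged from 1479 to 2742 in control mice and from 818 to 4917 in TNFdARE mice, with the lowest numbers in TNFdARE mouse 1 (818) and TNFdARE mouse 4 (1225). The read depth of each library is unknown. A listed 0 can be a failed estimate, since Hprt, which most cells express, was listed at 0 in all 8 libraries and Gapdh was above 0 in 3. The 18 platelet and megakaryocyte markers were all above 0 in at least 1 library and 16 of them in all 8. The single transcript AY036118 held from 33.7% to 67.7% of the summed FPKM of a library. Among markers of other blood cells, 12 of 14 erythroid, 3 of 9 monocyte and macrophage, 5 of 14 neutrophil and 3 of 8 T cell genes that were listed had a value above 0 somewhere. Among those at 0 in all libraries were Itgam, Cd14, S100a8, Ly6g and Cd3e. The summed monocyte and macrophage markers were nevertheless at least 12.0 FPKM in every library. Summed neutrophil markers reached 3.66 FPKM in control and 10.3 FPKM in TNFdARE mice, and T cell markers 2.07 and 0.822 FPKM. In bulk RNA of this kind, fewer cells of a type and less RNA per cell cannot be told apart.

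Ywhah dominated the family in every library. Its FPKM was 101.1, 102.8, 96.4 and 101.3 in control mice 1 to 4. In TNFdARE mice 1 to 4 it was 72.6, 77.2, 96.2 and 80.0. The highest TNFdARE value lay just below the lowest control value, and the other TNFdARE mice lay well below all controls. Ywhah was 46th to 62nd among all genes of a library by FPKM and 53rd by its mean over the 8 libraries, 91.0 FPKM. It made up between 61.8% and 97.5% of the summed FPKM of the 6 members, the lowest share being that of TNFdARE mouse 1, in which Ywhaz was high.

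Ywhaz was second. It was listed at 4.01, 6.63, 4.35 and 20.7 FPKM in control mice 1 to 4 and at 44.9, 2.65, 5.95 and 1.85 FPKM in TNFdARE mice 1 to 4. Control mouse 4 and TNFdARE mouse 1 were high, the other 6 mice lay between 1.85 and 6.63, and the groups overlapped. Ywhah exceeded Ywhaz in 8 of 8 libraries, with a ratio of 1.62 in TNFdARE mouse 1 and of 43.2 in TNFdARE mouse 4 at the extremes.

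The other 4 members were low. Ywhae was listed at 0, 1.57, 2.36 and 3.2 FPKM in control mice 1 to 4 and at 0, 1.72, 0.666 and 0 FPKM in TNFdARE mice 1 to 4. Ywhag was listed at 0, 0.0222, 4.00 and 0.490 FPKM in control mice and at 0, 1.76, 0.617 and 0 FPKM in TNFdARE mice, in the same order. Control mouse 1 and TNFdARE mouse 1 were at 0 for both genes, and TNFdARE mouse 4 as well. Ywhab was listed at 0, 0.714, 0.144 and 1.59 FPKM in control mice and at 0, 0.882, 0.798 and 0.133 FPKM in TNFdARE mice. Ywhaq was above 0 in 1 library, TNFdARE mouse 4, at 0.0642 FPKM. Sfn, the σ gene of epithelia that is not among the 6 members, was listed at 0 in all 8 libraries, as was the pseudogene Ywhaq-ps2. The number of members above 0 was 2 in control mouse 1 and TNFdARE mouse 1, 4 in TNFdARE mouse 4 and 5 in each of the other mice, so that it was lowest in libraries in which few genes of any kind were above 0.

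**Figure D1:**
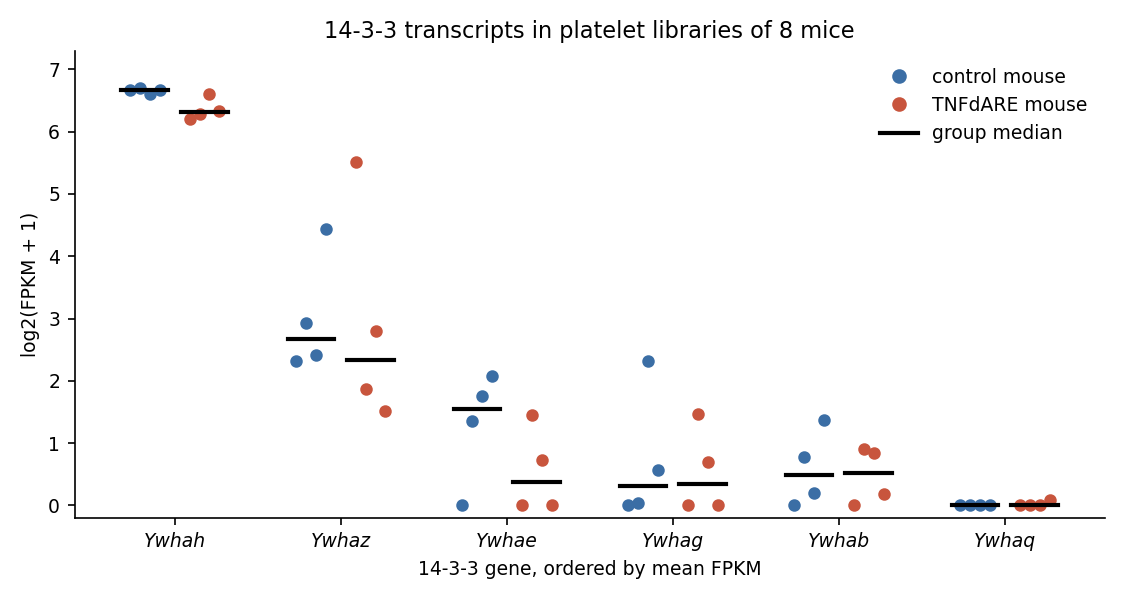
Level of each 14-3-3 gene, as log2(FPKM + 1), with 1 point per mouse (4 control and 4 TNFdARE mice) and bars at the group median. Ywhah lies above 6 in all 8 libraries and is tightly grouped, Ywhaz varies most, and the other genes lie near 0 in several libraries.

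The order of levels was tested within libraries. For each of the 15 pairs of members, the difference in log2(FPKM + 1) was taken in every library and tested with a two-sided exact sign-flip test over the 8 libraries, whose smallest p is 0.0078, with Benjamini-Hochberg adjustment over the 15 pairs. Ywhah exceeded Ywhaz by 3.53 ± 1.39 on this scale (SD, n = 8 libraries, adjusted exact p = 0.013). Ywhaz exceeded the next gene in the order, Ywhae, by 2.06 ± 1.57 and was the higher of them in 8 of 8 libraries (adjusted exact p = 0.013). Ywhae and Ywhag did not differ beyond their spread, with a difference of 0.28 ± 0.73 (adjusted exact p = 0.40), nor did Ywhag and Ywhab, with 0.10 ± 0.93 (adjusted exact p = 0.875). Ywhaq was listed at 0 in 7 of 8 libraries, so its comparison with Ywhab, which was higher in 6 of 8 by 0.52 ± 0.52, shows little more than in how many libraries Ywhab was above 0. Each of the 7 comparisons of Ywhah or Ywhaz with each other or with Ywhae, Ywhag or Ywhab had the smallest p that the test allows, and those with Ywhaq are not counted here since its zeros fix them. Ywhae and Ywhag were above 0 in 5 libraries and Ywhab in 6, so in the remaining libraries their zeros fix the sign as well. The levels of Ywhae, Ywhag, Ywhab and Ywhaq are close to the values at which genes are listed at 0, so their order is uncertain.

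Between genotypes, Ywhah had the clearest separation of the family, and it was small. The mean was 100.4 ± 2.77 FPKM in control mice and 81.5 ± 10.3 FPKM in TNFdARE mice (SD, n = 4 each), so that it was 18.8% lower by its mean in TNFdARE platelets. On log2(FPKM + 1), the difference was -0.31 with a standard error of 0.37 and a 95% interval from -1.10 to 0.49 (limma, adjusted p = 0.87 by Benjamini-Hochberg over the 1534 genes with a mean of at least 1 FPKM). The lowest control value exceeded the highest TNFdARE value by 0.22 FPKM, and the two-sided exact permutation test gave p = 0.029, the smallest that 4 mice against 4 allow. Groups without overlap were found for 3.32% of all genes tested, and 2.48% were without overlap and lower in TNFdARE mice. The median log2 fold change of all genes tested was -0.30, and the value of Ywhah minus that median was -0.00896, and -0.31 when genes of low mean were kept in.

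The error assigned to Ywhah depended on the model. The residual SD of Ywhah alone was 0.13 on the log2 scale, whereas limma, which draws each gene's spread toward that of genes of similar level, used 0.52. With an ordinary linear model without moderation, an alternative chosen after seeing the data, the standard error was 0.089 and p was 0.014 before adjustment and 0.86 after adjustment over all genes (limma's unmoderated fit). Females and males showed the same direction, with mean FPKM of 101.2 in control and 78.6 in TNFdARE females, and of 99.6 in control and 84.4 in TNFdARE males. The interaction of genotype and sex was -0.11 on the log2 scale with a standard error of 0.92 (limma, adjusted p = 0.98).

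The separation of Ywhah depended on how libraries were scaled. After median-of-ratios scaling Ywhah lay between 92.6 and 104.6 in the controls and between 72.5 and 94.8 in TNFdARE mice. When each library was rescaled to its sum without AY036118, it ranged from 88.8 to 111.7 in control mice and from 64.8 to 100.4 in TNFdARE mice. With the libraries rescaled to the summed FPKM of the platelet markers, the ranges were 74.7 to 108.2 and 79.5 to 100.3. The groups overlapped in each of these 3 scalings and after quantile normalization, and the log2 fold change stayed below 0 in all 22 alternatives, from -0.39 to -0.15. Not all of these could move it. A change of filter, trend or moderation, or adding sex or the replicate number, leaves the log2 fold change as it is in this balanced design. Other values that differed by range between the genotypes include the globin transcripts, whose summed FPKM was 734 to 2173 in control mice and 1093 to 14556 in TNFdARE mice, the summed monocyte and macrophage markers, at 30.8 to 52.9 FPKM in control and 12.0 to 36.1 FPKM in TNFdARE mice, and the summed platelet markers, at 1301 to 1795 FPKM in control and 1226 to 1364 FPKM in TNFdARE mice. Their part in the Ywhah result was not tested.

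**Figure D2:**
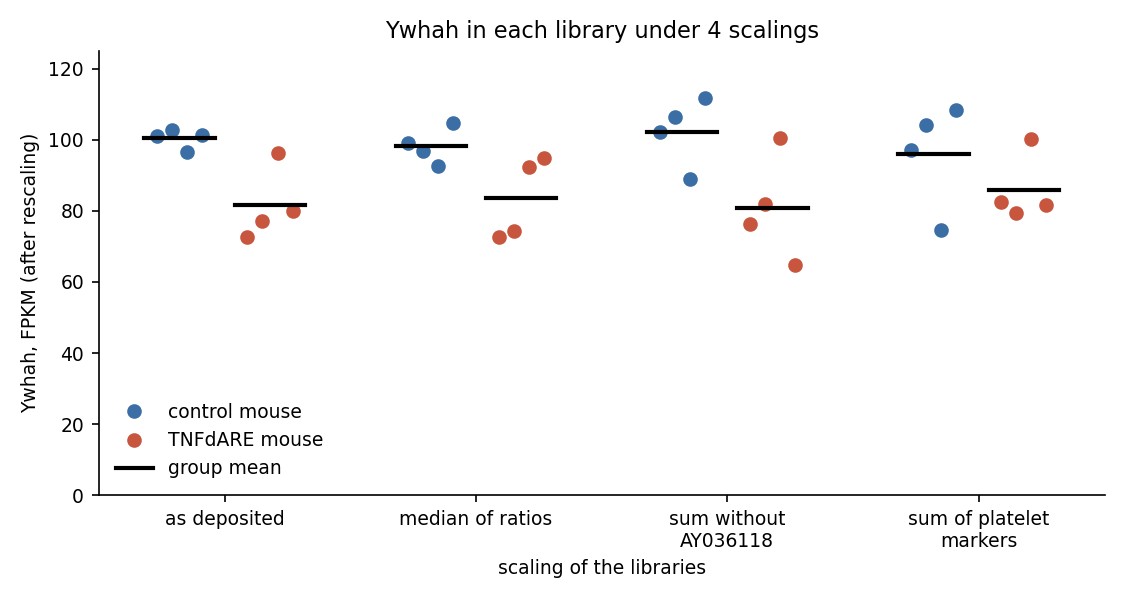
Ywhah FPKM in each of 4 control and 4 TNFdARE mice as deposited and after 3 rescalings of the libraries, with bars at the group mean and the axis starting at 0. As deposited, all control points lie above all TNFdARE points by a margin of 0.22 FPKM, and in the other 3 scalings the groups overlap.

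Ywhah was also among the most even transcripts in the whole table. Its coefficient of variation over the 8 libraries was 13.5%, the third lowest of the 1534 genes tested, and 11 genes had a coefficient of at most 20%. The median coefficient was 104.5% over all genes tested and 49.1% over the 400 of them above 0 in every library. Within control mice the coefficient of Ywhah was 2.76%, and within TNFdARE mice 12.6%. Its place was 4 from the lowest after median-of-ratios scaling (12.6%) and after rescaling to platelet markers (14.1%), and 6 from the lowest after rescaling without AY036118 (17.8%). Ywhaz, the reference gene of the family, had a coefficient of 130.1%. FPKM is a relative measure, so an even value shows an even share of the measured transcripts and not an even amount per platelet.

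The reference genes used for other tissues gave a scale for this evenness. Of 15 such genes, 5 had a mean of at least 1 FPKM. Actb, cytoplasmic β-actin, ranged from 54.1 to 97.3 FPKM in control and from 51.1 to 72.0 FPKM in TNFdARE mice, with a coefficient of variation of 24.9%. B2m, the light chain of MHC class I, had a coefficient of 33.5% around a mean of 434.2 FPKM. Actg1 (γ-actin) and Eef1a1 (a translation elongation factor) had coefficients of 71.1% and 100.8%. The fifth, Rpl13a, was above 0 in 3 libraries. None of the 5 passed an unadjusted p under 0.05 between genotypes, where 4.5% of all genes tested did (69 of 1534, limma), and 0 of 1534 passed an adjusted p under 0.05. The log2 fold changes were above 0 for 0 of 5, beside 37.0% of all genes tested, and their median was -0.40, beside -0.30 for all genes tested. The median of the 5 was -0.69 without control mouse 1. Without TNFdARE mice 1 and 4, 6 reference genes were tested and their median was -0.23.

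**Figure D3:**
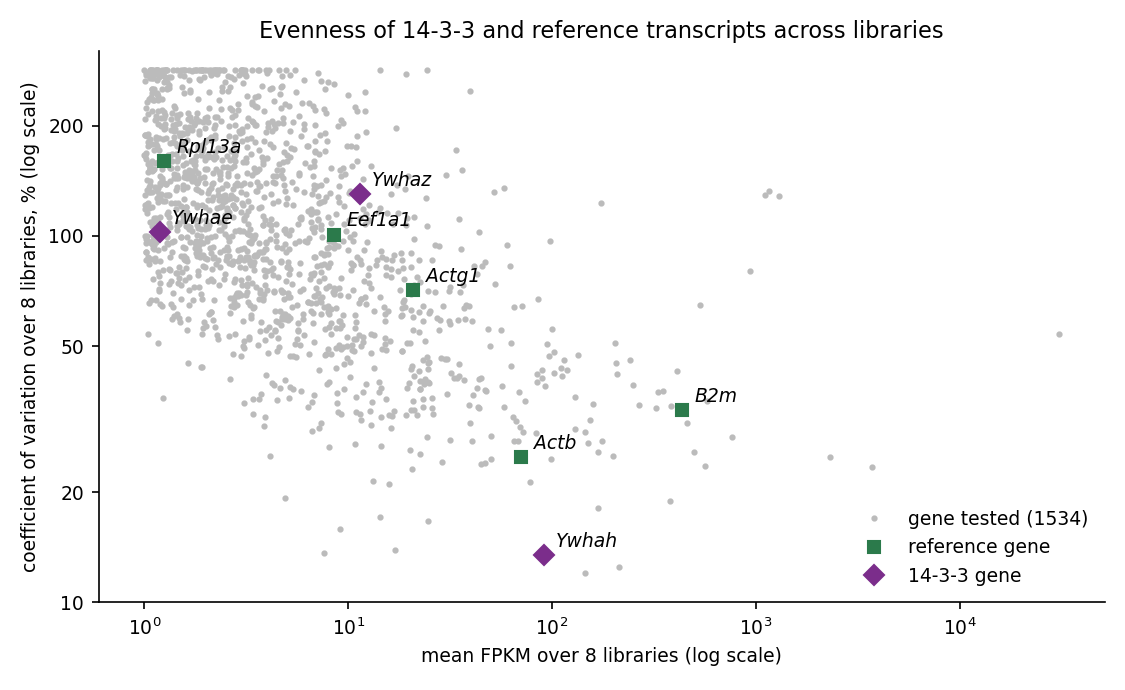
Coefficient of variation over the 8 libraries (percent, log axis) against mean FPKM (log axis) for the 1534 genes tested, with 14-3-3 genes as diamonds and reference genes as squares. Ywhah lies at the lower edge of the cloud at 13.5%, below Actb at 24.9%, while Ywhaz and Ywhae lie above 100%.

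Ywhaz did not show a difference between genotypes beyond its spread. Its log2 fold change was -0.10 with a standard error of 0.88 and a 95% interval from -2.0 to 1.79 (limma, adjusted p = 0.99), and the exact permutation test gave p = 0.94. The sign turned under pseudocount 5, quantile normalization and rescaling to platelet markers, and without control mouse 4, TNFdARE mouse 2 or TNFdARE mouse 4. The high value of TNFdARE mouse 1 set the upper end, and without this mouse the log2 fold change was -0.97. By mean FPKM, Ywhaz was higher in TNFdARE mice (13.8) than in control mice (8.92), the other direction from the log2 scale. Mean FPKM was 12.3 in control and 2.25 in TNFdARE females, and 5.49 in control and 25.4 in TNFdARE males. The interaction of genotype and sex was -3.17 on the log2 scale with a standard error of 1.60 (limma, adjusted p = 0.92), and each combination of sex and genotype held 2 mice. The unadjusted p was above 0.05 with all mice and under 0.05 without control mouse 1, at -4.23, or without TNFdARE mouse 3, at -4.54. In those fits 1 combination of sex and genotype holds a single mouse, which is assumed to vary like the others. Of all genes tested, 3.52% had an interaction with an unadjusted p under 0.05, and none of the 3 members tested did with all mice.

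Ywhaz values are uncertain, since its coding sequence has a near-identical copy. Gm4202, a processed pseudogene at chr3:92689426-92690158, aligned to the Ywhaz transcript over 733 bases with 99.86% identity. Over the 732 coding bases aligned there was no differing base, so that fragments of the coding part can come from either. This copy was chosen for description after its values were seen. Gm4202 was listed at 19.4, 6.06, 11.7 and 18.7 FPKM in control mice 1 to 4 and at 0, 25.1, 8.69 and 7.65 FPKM in TNFdARE mice 1 to 4. The only library with Gm4202 at 0, TNFdARE mouse 1, was the library with the highest Ywhaz. The sum of both entries was 23.4, 12.7, 16.0 and 39.4 FPKM in control mice and 44.9, 27.7, 14.6 and 9.51 FPKM in TNFdARE mice. The highest Ywhaz value was 24.3 times the lowest, and the highest sum was 4.73 times the lowest. Gm4202 held between 47.5% and 90.4% of the sum in the 7 libraries in which it was above 0. Because FPKM is scaled to the length of each annotated transcript, such a sum is not a level per molecule, and how the authors' estimates divided shared fragments is not given in the sources used here.

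**Figure D4:**
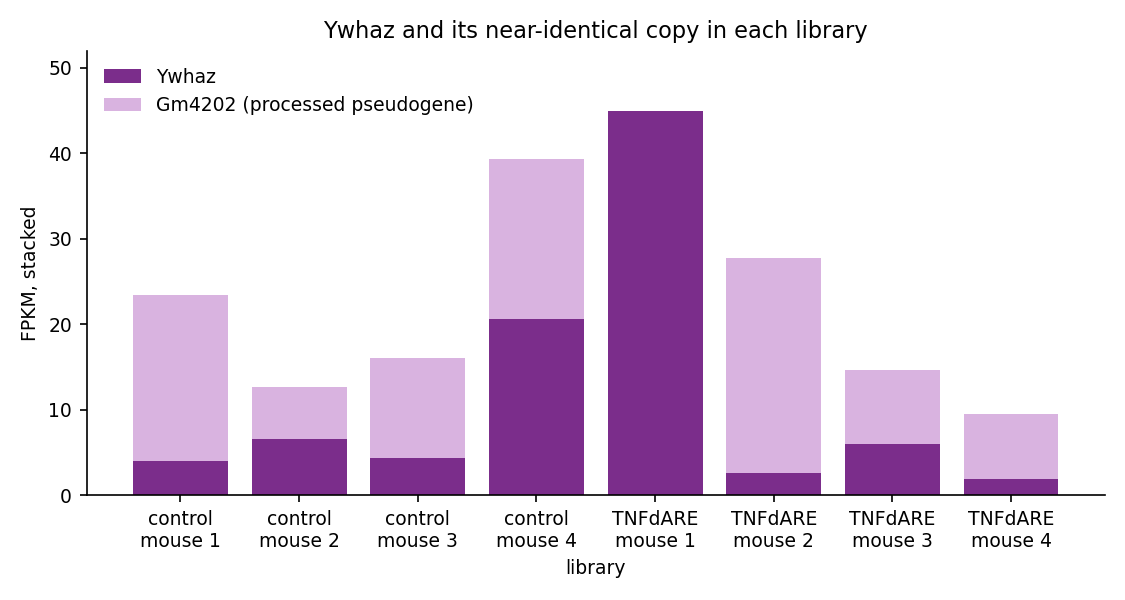
FPKM of Ywhaz (dark) and of its processed pseudogene Gm4202 (light), stacked, in each of the 8 libraries. Gm4202 is above 0 in all libraries except TNFdARE mouse 1, in which Ywhaz reaches 44.9 FPKM.

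Ywhah also has a copy, which differs from it at more coding bases than Gm4202 does from Ywhaz. The processed pseudogene Gm12428, at chr3:98821038-98821764, aligned to Ywhah at 95.32% identity over 748 positions, gaps included. Over the 720 coding bases aligned without gaps, only 7 differed, so that fragments of stretches without a difference can come from either. Gm12428 was above 0 in 4 libraries, with 9.36 FPKM at most, in TNFdARE mouse 4. The sum of both lay between 96.4 and 106.0 FPKM in the controls and between 72.6 and 96.2 FPKM under the deletion, so the groups still did not overlap. Ywhaq has 7 copies at 95% identity or more over at least 150 bases, 5 of them in the table, of which 1, the gene Cdk5rap2, was above 0 in 1 library, at 0.0437 FPKM. No such copy of Ywhab, Ywhae or Ywhag was found.

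Of the other members, Ywhae could be tested, with a mean over 1 FPKM. Its log2 fold change was -0.75 with a standard error of 0.73 and a 95% interval from -2.32 to 0.82 (limma, adjusted p = 0.86), and it was above 0 in 3 of 4 control and 2 of 4 TNFdARE mice (exact permutation p = 0.31). Its direction was the same in all 22 alternatives, some of which cannot move it, and its size ranged from -1.65 to -0.21. The interaction with sex was 0.87 with a standard error of 1.66 (limma, adjusted p = 0.95). Ywhag and Ywhab had differences of -0.19 and -0.10 in mean log2(FPKM + 1), with exact permutation p = 0.80 and p = 0.86. Ywhag, whose protein is the loading control named above, was above 0 in 5 libraries and Ywhab in 6. Ywhag turned to 0.34 without control mouse 3, its highest library. The protein was not measured in these data. Thus 0 of the 3 members tested passed an unadjusted p under 0.05 (limma), where 4.5% of all genes tested did and 2.74% did with a lower value in TNFdARE mice.

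The genes whose products bind 14-3-3 proteins, or stand in a complex that does, were then examined as the partners of the family. Of 52 genes listed from general knowledge, 14 had a mean of at least 1 FPKM. Of these, 3 were higher and 11 lower by sign in TNFdARE platelets, beside 37.0% higher by sign among all genes tested. None of the 14 passed an unadjusted p under 0.05 (limma), where 4.5% of all genes tested did, so that few or no calls in a list of this length say nothing about the list. The median log2 fold change of the list was -0.42, and that of all genes tested -0.30. After quantile normalization these were -0.097 and -0.060.

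The receptor GPIb-IX-V, the best known platelet partner of 14-3-3ζ, was present with all 4 subunits. Gp1bb, the GPIbβ chain whose phosphorylated tail binds 14-3-3, ranged from 40.0 to 129.0 FPKM in control and from 57.0 to 87.1 FPKM in TNFdARE mice. Its log2 fold change was 0.027 with a standard error of 0.45. Gp1ba, which carries the von Willebrand factor site, had -0.013 ± 0.54 and Gp5 had -0.070 ± 0.50 (log2 fold change ± standard error), and the sign of each of these 3 turned with the scaling or the mice left out. Gp9, needed for surface expression of the complex, was 28.3, 88.5, 117.6 and 59.4 FPKM in control mice and 83.2, 138.7, 98.9 and 122.6 FPKM in TNFdARE mice. The Gp9 groups overlapped, and its log2 fold change was 0.74 with a standard error of 0.49 (limma, adjusted p = 0.86). Dropping control mouse 1, which had the lowest Gp9, brought this down to 0.35, while dropping control mouse 3 brought it up to 1.02. Ywhaz was lower than Gp1bb in all 8 libraries.

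Among the other partners, Becn1 was the only gene of the 14 without overlap between the groups, beside 3.32% of all genes tested without overlap and 2.48% without overlap and lower in TNFdARE mice. Becn1, the autophagy regulator whose phosphorylated form binds 14-3-3, ranged from 13.4 to 18.2 FPKM in control and from 0 to 11.9 FPKM in TNFdARE mice, with 0 in TNFdARE mouse 1. Its log2 fold change was -1.62 with a standard error of 0.77 (limma, adjusted p = 0.86). Its unadjusted p was above 0.05, and under 0.05 in 4 of 22 alternatives, with log2 fold changes from -2.03 to -0.97 in those 4. In others the change was smaller, at -0.80 without TNFdARE mouse 1, -0.65 with sample weights and -0.62 without TNFdARE mice 1 and 4. Cfl1, the actin-severing protein cofilin, whose phosphatase and phosphorylated form bind 14-3-3, ranged from 5.48 to 73.3 FPKM in control and from 1.44 to 47.5 FPKM in TNFdARE mice. Itgb1, the integrin β1 chain, ranged from 21.5 to 36.8 FPKM in control and from 7.31 to 27.5 FPKM in TNFdARE mice, with the lowest values in TNFdARE mice 1 and 4. Its log2 fold change was -0.88 with a standard error of 0.57 (limma, adjusted p = 0.86). Without TNFdARE mouse 4 it was -0.56, and without TNFdARE mice 1 and 4 it was -0.085.

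**Figure D5:**
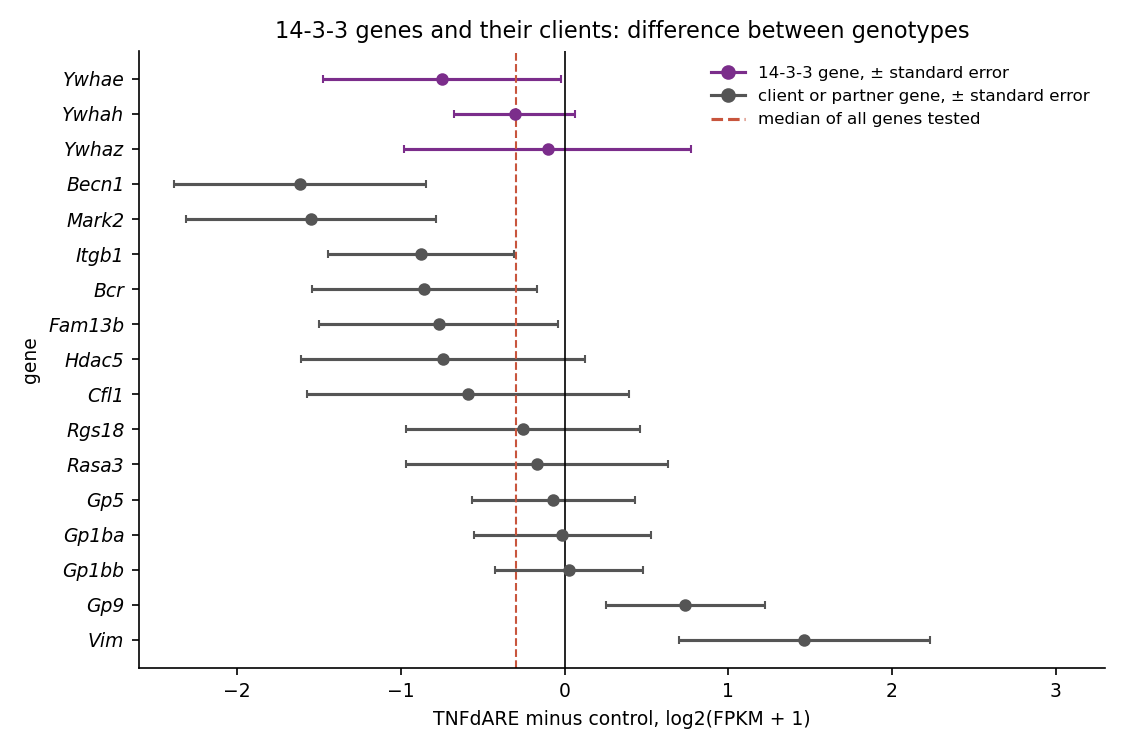
Difference between TNFdARE and control mice in log2(FPKM + 1) for the 3 14-3-3 genes tested and the 14 client and partner genes tested, with bars of 1 standard error from limma and a dashed line at the median of all genes tested, -0.30. The GPIb-IX-V subunits lie from -0.070 to 0.74, Becn1 lies lowest at -1.62, and Ywhah lies on the dashed line at this filter.

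The genes most like each tested member across the 8 libraries were found by the Pearson correlation of log2(FPKM + 1), over 543 or 544 genes with a mean of at least 5 FPKM that were above 0 in at least 5 libraries. These values are descriptions, since all genes of a library share its depth and scaling. The highest of so many correlations over 8 libraries can also be high for unrelated genes. Most like Ywhah were Inf2 (r = 0.91), which encodes an actin-nucleating formin, R3hdm4 (0.90) and Gm3470 (0.90). Inf2 was 6.95, 7.60, 5.99 and 6.60 FPKM in control mice and 1.69, 4.67, 6.27 and 3.09 FPKM in TNFdARE mice, and TNFdARE mouse 3 lay among the controls, as it lay closest to them for Ywhah. Most like Ywhaz were the pseudogene Cd9-ps (0.94), the translation factor Eif4g2 (0.91) and the mitochondrial NAD kinase Nadk2 (0.87), all of which were highest in TNFdARE mouse 1. Nadk2 was 70.4 FPKM there and at most 6.35 FPKM elsewhere. Most like Ywhae were AK157302 (0.88, the entry ENSMUSG00000090187), Ntan1 (0.86) and Cox8a (0.86), of which Ntan1 and Cox8a were listed at 0 in the same 3 libraries as Ywhae. The Spearman rank correlations of the same genes were 0.83 to 0.93 for Ywhah, 0.74 to 0.81 for Ywhaz and 0.575 to 0.68 for Ywhae. Ywhah and Ywhaz did not run together, with r = -0.12 between them.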

How the data were processed

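Platelet RNA of 4 TNFdARE and 4 control mice was sequenced by the authors as 150 bp reads. The submitters' processing notes name Cufflinks and mm10; versions, annotation and the treatment of multiply mapped reads are not given in the sources used here. For every gene the authors deposited a value from each mouse, read here as FPKM. This unit was inferred from Cufflinks and from column sums that differ, between 46047 and 99470. The methods on spatial probes mention CPM for bulk sequencing too, which these sums do not reach, and if values were not scaled to length, levels could not be compared between genes. Columns were matched to mice by library name. FPKM times transcript length of long single-transcript genes gave no step that could be read as 1 fragment (values fell to 2.33e-214), so depth is unknown and no count model was used.

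Genes whose mean reached 1 FPKM entered limma 3.58.1 (R 4.3.3) as log2(FPKM + 1) (trend, Benjamini-Hochberg over all 1534 genes tested), tested on simulated data beforehand. Fold changes on this scale understate changes of low genes. Each library came from a separate mouse, so p-values measure the spread between mice. Members and lists were chosen with earlier results of these data known. Genes named are the members, Sfn, other Ywha entries, list genes with p under 0.05 or without overlap, the 6 highest client and 4 highest reference genes, and the 3 genes most like each tested member; the copies Gm4202, Gm12428 and Cdk5rap2, and Rpl13a, Gp1ba, Vim, Mark2 and the even genes of the closing section, were added after their values were seen. Sequences were aligned with MAFFT 7.526 and copies sought with BLAST 2.17.0 in GENCODE M21, which holds 42384 of the 43548 identifiers. Alternatives were other pseudocounts, filters, scalings and models, sex, the replicate number, and leaving out each mouse.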

Additional observations from a re-analysis of the deposited data

Results flagged for a closer look

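In 31 groups of 4 mice examined for a mouse far from the others, 5 had one. Chance gives about 1 in 20 only for normally distributed values. FPKM with listed zeros are not of that kind, so the 5 cannot be set against that rate. For Ywhaz, control mouse 4 lay above the other control mice, with a gap to the nearest of 0.842 of the range of the group, and TNFdARE mouse 1 lay above the other TNFdARE mice, with a gap of 0.905. For Ywhag, control mouse 3 lay above the other control mice (0.878 of the range). For Ywhaq, TNFdARE mouse 4 was the only mouse above 0 (1 of the range, which the zeros of the others fix). For Actg1, control mouse 2 lay above the other control mice (0.946 of the range). Ywhah had no such mouse in either group.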

How the results depend on the processing

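Across all genes, 69 had an unadjusted p under 0.05, with 36 at a mean of at least 5 FPKM (583 genes tested) and 111 with sample weights, and ranged from 46 to 76 when 1 mouse was left out. Called genes higher in TNFdARE mice were 39.1% as deposited, 57.6% after quantile normalization, 50% after rescaling to platelet markers, 66.7% with sample weights, 24.5% without control mouse 1, 55.6% without TNFdARE mouse 1 and 55.3% without TNFdARE mouse 4. The median of all genes, -0.30, was -0.060 after quantile normalization, -0.18 after rescaling to platelet markers and -0.011 with sample weights, and in the same order Ywhah minus that median was -0.17, 0.033 and -0.18. Without a filter on low values the median was 0.0088 and Ywhah minus it -0.31. Without TNFdARE mice 1 and 4, an alternative chosen after seeing the data, 51 genes had an unadjusted p under 0.05, with 40 of them (78.4%) higher, the median of all genes was 0.018, Ywhah minus that median was -0.24, and Ywhab (0.29) and Ywhag (0.35) turned positive.

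Ywhah kept its direction in all 22 alternatives and had an unadjusted p under 0.05 in 1, the ordinary linear model without moderation (-0.31). When 1 mouse was left out, its log2 fold change ranged from -0.39 to -0.25, that of Ywhaz from -0.97 to 0.37, that of Ywhab from -0.30 to 0.16 (positive without control mouse 4 or TNFdARE mouse 1) and that of Ywhag from -0.50 to 0.34. Ywhaz was 0.047 with pseudocount 5, 0.059 after quantile normalization and 0.023 after rescaling to platelet markers. The interaction with sex ranged from -4.54 to -1.81 for Ywhaz and from -0.31 to 0.090 for Ywhah over the same fits, and from -0.16 to 1.60 for Ywhae over 7 of them (its mean fell under the filter without control mouse 4). The level of Ywhag minus that of Ywhab was -0.10 with pseudocount 0.1 and ranged from -0.19 to 0.23 when 1 mouse was left out, that of Ywhae minus Ywhag from 0.11 to 0.41, and that of Ywhab minus Ywhaq from 0.40 to 0.60, with an adjusted exact p of 0.047 with all mice that rose to between 0.078 and 0.094 in 6 of 8 of these. The client list had 0 genes with an unadjusted p under 0.05, and 1 with pseudocount 5 (Becn1), 2 without a filter (Vim and Mark2), 1 after rescaling without AY036118 (Becn1), 1 without a trend (Mark2), 1 with sample weights (Mark2) and 0 to 1 when 1 mouse was left out. Its median, -0.42 as deposited, ranged from -0.92 to -0.27 when 1 mouse was left out and was -0.11 without a filter, -0.16 at a mean of at least 5 FPKM, -0.12 with sample weights, -0.097 after quantile normalization and -0.14 without TNFdARE mice 1 and 4. Among the named partners, Gp9 and Itgb1 kept their direction and side of the threshold in all 22 alternatives, and Becn1 its direction. Their sizes moved with 1 mouse left out, from 0.35 to 1.02 for Gp9, -1.16 to -0.56 for Itgb1 and -2.03 to -0.80 for Becn1. Itgb1 was also -0.14 with sample weights and -0.085 without TNFdARE mice 1 and 4. When 1 mouse was left out, Gp1ba ranged from -0.23 to 0.14, Gp1bb from -0.24 to 0.32, Gp5 from -0.26 to 0.085 and Cfl1 from -1.35 to 0.44. Gp1ba also turned to 0.23 after quantile normalization, 0.047 after median-of-ratios scaling, 0.13 after rescaling to platelet markers, 0.34 with sample weights and 0.15 without TNFdARE mice 1 and 4. Gp5 turned to 0.020, 0.079, 0.12 and 0.16 after quantile normalization, after rescaling to platelet markers, with sample weights and without TNFdARE mice 1 and 4. Gp1bb turned to -0.015 after rescaling without AY036118 and -0.17 without those mice, and Cfl1 to 0.067 with sample weights and 0.57 without those mice. Similar-gene correlations were not varied. Ywhaq was 0 without TNFdARE mouse 4. Other member results kept direction and threshold side. The causes were not tested. Numbers are those of the sample titles. Mice with the same number did not deviate together (correlations from -0.067 to 0.060), and not every mouse correlated best with its own number. With the replicate number as a block, 64 genes had an unadjusted p under 0.05, the log2 fold change of Ywhah was -0.31, which a balanced block cannot move, and no call on a member changed. Other ties between mice that library names might carry were not examined. Ywhab, Ywhae, Ywhag and Ywhaq were listed at 0 in 2 to 7 libraries, and since depth is unknown its part in this was not tested.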

Other observations

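Beside Ywhah, the genes with the lowest coefficient of variation over the 8 libraries were Hist1h2bc (12.0%, mean 145.7 FPKM), which encodes a histone H2B, Atp5e (12.5%, 212.5 FPKM), which encodes a subunit of mitochondrial ATP synthase, Tmem140 (13.6%, 7.65 FPKM) and Gpr56 (13.9%, 16.9 FPKM), an adhesion receptor of platelets. Clu, which encodes the granule protein clusterin, had 18.1% at a mean of 168.2 FPKM. These genes were picked for their evenness in these libraries and their evenness was not tested.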
